A study of Mus musculus with 2 samples.

Results

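The mir-15/16 cell-cycle family comprises the miRNA genes Mir15a, Mir16-1, Mir15b, Mir16-2, Mir195a and Mir497. Its 6 members were found by symbol among 2202 counted miRNA genes, all of them named from the GENCODE M21 annotation. The members were read in small RNA libraries of the gastrocnemius, the large calf muscle, from female B6CASTF1/J mice at 4 days of age. Each animal is an F1 hybrid between C57BL/6J and CAST/EiJ. There is 1 group of 2 libraries, 1 from each of the females numbered in the labels, which give both the same donor identifier, with no treatment and no control group. Library 1 had 5569392 reads on the own strand of a miRNA gene and library 2 had 4336759. A further 36.9% of all reads in library 1 and 37.6% in library 2 matched several places and belonged to no gene. Skeletal muscle miRNA genes were present as the label implies, led by Mir206 at 129336 CPM in library 1 and 119323 CPM in library 2, where CPM is a gene's own-strand count scaled to the library's total of gene counts. The Mir1a and Mir133a genes, also skeletal muscle markers, had at most 17.8 CPM in either library, and near-identical copies of them exist.

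A miRNA is a short RNA cut from a hairpin transcript, and it pairs with messenger RNAs mainly through its seed, the stretch from base 2 to base 8, to lower their stability and translation. The miR-15/16 family is known for restraining the cell cycle, since its targets include the messages of D-type and E-type cyclins, of the kinase Chek1 and of the survival factor Bcl2. In mouse heart, miR-195 is known to rise after birth as cardiomyocytes leave the cell cycle, and in mouse skeletal muscle stem cells miR-195 and miR-497 have been linked to quiescence through cell-division-cycle phosphatases and cyclins. Myoblasts leave the cell cycle before they fuse into muscle fibres.

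The mature sequences of the 5p arm are shown because they define the family and because identity between them decides which reads could be counted. They are written 5′ to 3′ from RefSeq (GRCm38.p6), with the seed in capitals. Mir322 is included because it carries the same seed from the X chromosome.
miR-15a-5p: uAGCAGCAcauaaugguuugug
miR-15b-5p: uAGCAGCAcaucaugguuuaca
miR-16-5p: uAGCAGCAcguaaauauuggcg
miR-195a-5p: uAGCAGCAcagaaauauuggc
miR-497a-5p: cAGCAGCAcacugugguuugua
miR-322-5p: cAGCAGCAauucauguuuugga

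All 6 members carried 1 seed, which 11 of the 1738 mature miRNAs in the RefSeq table hold (0.633%). The 6 genes made 5 distinct 5p sequences, since Mir16-1 and Mir16-2 both encode miR-16-5p. From base 2 on, each member matched miR-16-5p through base 9 or farther, whereas miR-322-5p departed from it after base 8. Beyond the seed the sequences fell into like pairs. MiR-195a-5p differed from miR-16-5p at 2 of 21 bases, and miR-15a-5p differed from miR-15b-5p at 4 of 22. MiR-497a-5p was nearer to the miR-15 sequences, with 5 differences from miR-15a-5p and 6 from miR-15b-5p over 22 bases. It had 11 differences from miR-16-5p over 22 bases and 9 from miR-195a-5p over 21.

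The members lie as 3 pairs in the genome. Mir15a (chromosome 14, 61632027 to 61632110 in mm10, minus strand) and Mir16-1 (61631880 to 61631972) are 54 bases apart within the long noncoding RNA gene Dleu2. Mir15a is intronic, and Mir16-1 overlaps an annotated Dleu2 exon by 13 bases. Mir15b (chromosome 3, 69009772 to 69009835, plus strand) and Mir16-2 (69009902 to 69009996) are 66 bases apart in an intron of Smc4, which encodes a condensin subunit that compacts mitotic chromosomes. Mir497 (chromosome 11, 70234717 to 70234800, plus strand) and Mir195a (70235042 to 70235135) are 241 bases apart, and the annotation has no host gene on their strand. Mir497 lies within Mir497b on the opposite strand.

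The hairpins of Mir16-1 and Mir16-2 are printed because of the stretch they have in common, shown in capitals (RefSeq, GRCm38.p6).
Mir16-1: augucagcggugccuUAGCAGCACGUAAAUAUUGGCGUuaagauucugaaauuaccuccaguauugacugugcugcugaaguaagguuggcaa
Mir16-2: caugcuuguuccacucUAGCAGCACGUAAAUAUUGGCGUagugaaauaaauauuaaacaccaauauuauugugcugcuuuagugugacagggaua

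The common stretch was 23 bases long and contained all of miR-16-5p. A read of that sequence matches both genes, and reads with several matches were listed outside the genes, so counts of Mir16-1 and Mir16-2 leave such reads out and their levels are uncertain. Their 3p arms differ between the hairpins (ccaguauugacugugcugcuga in Mir16-1, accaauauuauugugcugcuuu in Mir16-2). The other 4 members shared at most 16 bases with any other counted hairpin, the longest stretch being that of Mir195a with Mir195b. Among 1678 mature arms of counted genes in the table, 8.16% lay whole in more than 1 counted hairpin. Matches outside the counted genes were not searched. The tables count reads per gene, so 5p and 3p arms could not be told apart.

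All members passed the detection limit of 2 CPM in each library. Mir195a, whose product is linked to postnatal cell-cycle exit in mouse heart, had 4803 counts in library 1 (862 CPM) and 2236 in library 2 (516 CPM). Mir15a, in the locus often lost in human chronic lymphocytic leukaemia, had 3942 counts in library 1 (708 CPM) and 2143 in library 2 (494 CPM). Mir15b, its Smc4-hosted paralog, had 3432 counts in library 1 (616 CPM) and 2180 in library 2 (503 CPM). These were the family's 3 most counted genes in each library.

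Mir497, the partner of Mir195a, had 1494 counts in library 1 (268 CPM) and 1058 in library 2 (244 CPM). Mir16-1 had 1715 counts in library 1 (308 CPM) and 845 in library 2 (195 CPM). Mir16-2 had the fewest, with 693 counts in library 1 (124 CPM) and 337 in library 2 (77.7 CPM). The lower group thus holds 1 gene of each pair, and for both Mir16 genes the counts exclude miR-16-5p reads that match both.

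**Figure D1:**
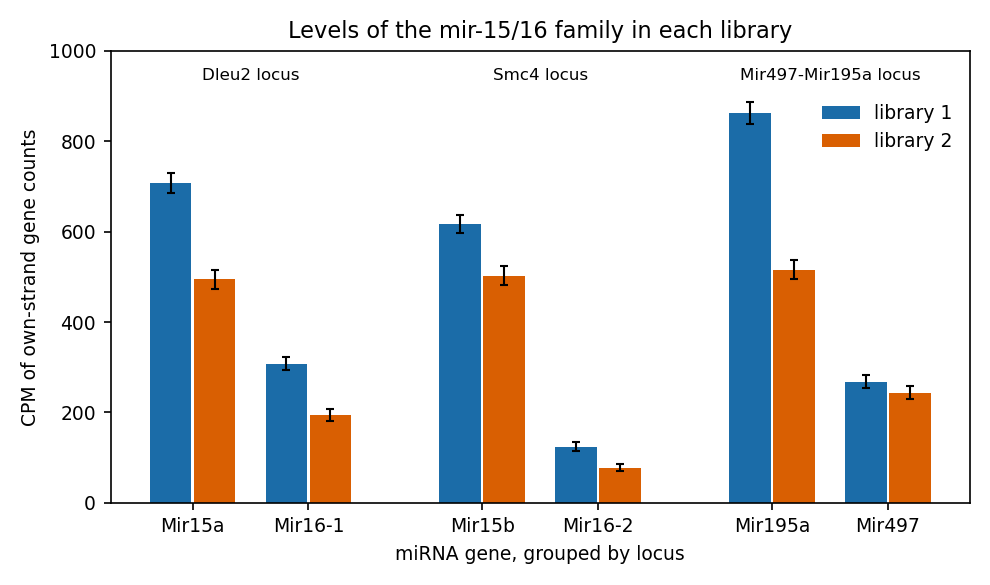
Bars give CPM of own-strand gene counts for each member in library 1 (blue) and library 2 (orange), grouped by locus, with exact 95% counting intervals. Every member is higher in library 1, from Mir195a at 862 CPM in library 1 against 516 CPM in library 2 to Mir497 at 268 CPM in library 1 against 244 CPM in library 2.

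In mean CPM over the 2 libraries the order was Mir195a at 689 ± 245 (SD, n = 2), Mir15a at 601 ± 151, Mir15b at 559 ± 80.3, Mir497 at 256 ± 17.2, Mir16-1 at 251 ± 80.0 and Mir16-2 at 101 ± 33.0. Only the steps from Mir15b to Mir497 and from Mir16-1 to Mir16-2 had no overlap between the libraries' values. Mir195a and Mir15a overlapped, Mir15a and Mir15b changed places between libraries, and so did Mir497 and Mir16-1. Per 100 bases of hairpin, Mir15b came first at 874 mean CPM, since its annotated hairpin is the shortest at 64 bases, followed by Mir195a at 733 and Mir15a at 715. The lower 3 kept their order on that scale. The median detected gene of 335 had a mean of 123 CPM, and of the members Mir16-2 alone lay under it. Mir195a ranked 96 of all counted genes by mean CPM.

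Together the members held 0.289% of gene counts in library 1 (exact 95% interval 0.284 to 0.293) and 0.203% in library 2 (0.199 to 0.207). By locus, Mir195a with Mir497 held 39.2% of the family's counts in library 1 and 37.4% in library 2. Mir15a with Mir16-1 held 35.2% in library 1 and 34.0% in library 2, and Mir15b with Mir16-2 held 25.7% in library 1 and 28.6% in library 2. The order of the loci was the same in each library, for assigned reads only, since 2 of the 3 loci hold a Mir16 gene whose miR-16-5p reads match both genes and were left out.

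**Figure D2:**
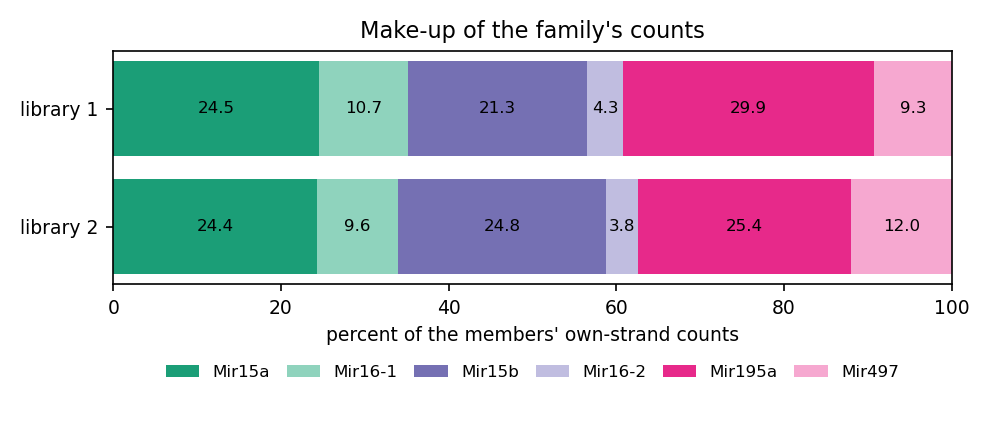
Stacked bars give each member's percent of the family's own-strand counts in library 1 (upper) and library 2 (lower). Mir15a holds 24.5% in library 1 and 24.4% in library 2, Mir195a 29.9% in library 1 and 25.4% in library 2, and Mir497 9.29% in library 1 and 12.0% in library 2.

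Every member was higher in library 1 than in library 2 beyond counting error. By an exact two-sided binomial test on counts scaled by TMM, edgeR's trimmed-mean factors, with Benjamini-Hochberg adjustment over 335 genes, 6 of 6 members were called higher in library 1. Of all genes tested, 55.5% were called, 26.9% as higher in library 1 and 28.7% as lower. With TMM factors taken over all counted genes, the calls over all genes were 117 higher and 74 lower, against 90 and 96 with factors from the detected genes. The median log2 ratio of library 1 over library 2 was 0.61 for the members and -0.03 for all genes tested. The members lie in pairs at shared loci and are not independent of one another. The test compares these 2 libraries, which are separate animals only as far as the labels number the females, and its p-values cover counting error only. With 1 group, no difference between conditions could be tested, and differences between the animals, dissections and library preparations cannot be told apart.

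Mir195a had the largest ratio in the family, at 0.76 on the log2 scale (95% interval 0.69 to 0.84; adjusted p = 3.37e-99 by the exact test), and only 7 of the other genes tested, 2.09% of all 335, had a larger one. Mir16-2 followed at 0.70 (0.51 to 0.89) and Mir16-1 at 0.68 (0.56 to 0.80). These 3 genes were more than 1.5-fold higher in library 1 by point estimate, and the intervals of both Mir16 genes reached below 1.5-fold. At that size 3.88% of all genes tested were called higher in library 1 and 8.06% lower. The 2 Mir16 genes, on different chromosomes, thus had overlapping intervals.

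Mir15a had a log2 ratio of 0.54 (0.46 to 0.62) and Mir15b of 0.32 (0.24 to 0.39). Mir497 was nearest to equal at 0.16 (0.04 to 0.27; adjusted p = 0.0122 by the exact test), and 29.3% of all genes tested had a larger ratio. The interval of Mir497 lay apart from those of Mir195a, Mir15a and both Mir16 genes and overlapped that of Mir15b. When strand was ignored, Mir497 had 0 counts, because each of its reads also lay in Mir497b, so its ratio rests on the stranded counts. Summed over the family's assigned reads, the ratio was 1.45-fold, a log2 ratio of 0.53 (0.49 to 0.57).

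**Figure D3:**
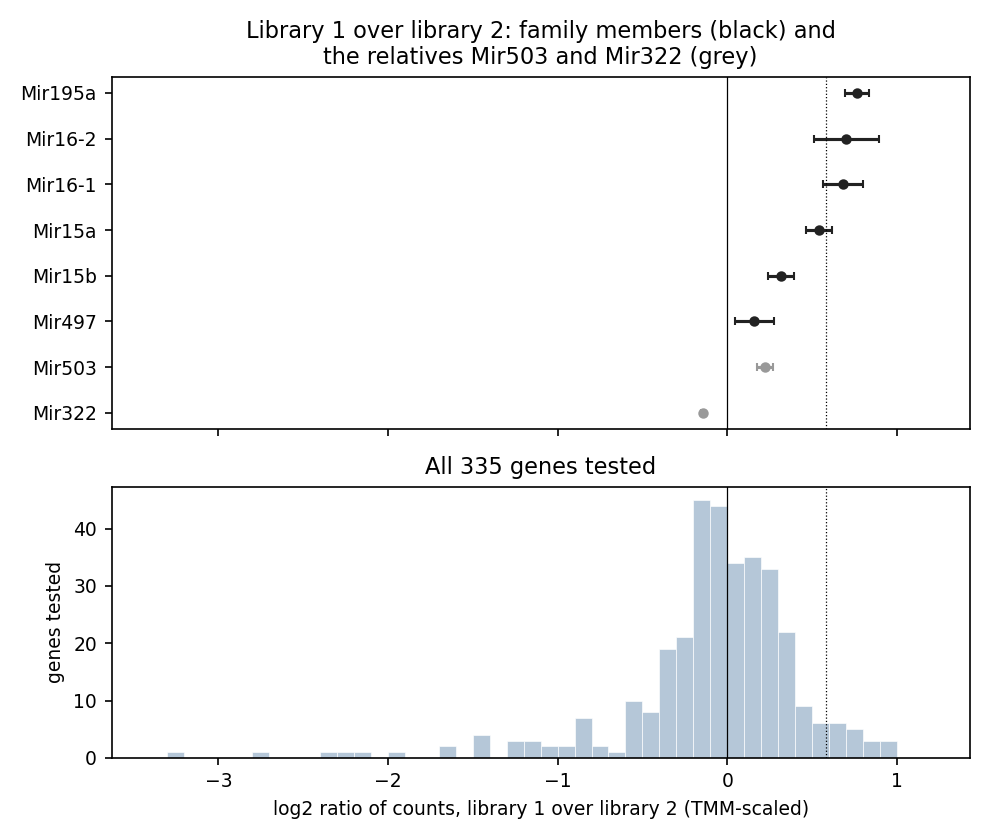
The upper panel gives the log2 ratio of library 1 over library 2 with exact 95% counting intervals for members (black) and the relatives Mir503 and Mir322 (grey), and the lower panel is a histogram of that ratio for all 335 genes tested. Solid lines mark equality and dotted lines 1.5-fold. The members lie between 0.16 and 0.76, right of the median of all genes at -0.03, and Mir322 lies left of equality at -0.14. Ratios of both Mir16 genes are of assigned reads only.

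Known markers of other cell types also differed between the libraries. Of 8 listed leukocyte markers, 6 were in the tables and summed to 1013 CPM in library 1, against 652 CPM in library 2, a log2 ratio of 0.66 (0.59 to 0.72). All of these but Mir146b, which had no count, were higher in library 1, and 4 of 5 tested were called. The 2 endothelial genes summed to 29519 CPM in library 1, against 21932 CPM in library 2, a log2 ratio of 0.45 (0.44 to 0.46), nearly all of it from Mir126a. Connective tissue markers, 5 genes, summed to 5418 CPM in library 1, against 4243 CPM in library 2, a log2 ratio of 0.38 (0.35 to 0.40). Nearly all of that sum came from Mir214 and Mir140, and of the 4 genes tested 2 were called higher in library 1 and 2 were not called.

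The skeletal muscle list, 9 genes, summed to 130998 CPM in library 1, against 120702 CPM in library 2, a log2 ratio of 0.14 that rests almost wholly on Mir206. Of its 8 tested genes, 3 were called higher in library 1, among them Mir208b at 0.60 and Mir499 at 0.33, 1 was called lower, Mir486 at -0.22, and 4 were not called. Erythroid Mir451a and Mir144 summed to 96.8 CPM in library 1, against 119 CPM in library 2, a log2 ratio of -0.28 (-0.46 to -0.10), with Mir451a called lower at -0.40 and Mir144 not called at 0.09. The 2 smooth muscle genes summed to 25509 CPM in library 1, against 29100 CPM in library 2, a log2 ratio of -0.17, but they were called in opposite directions, Mir143 at -0.17 and Mir145a at 0.12. The leukocyte, endothelial, connective tissue and skeletal muscle sums were thus higher in library 1, as the members were, and the erythroid and smooth muscle sums were lower, with genes within both of those lists on either side of equality. The part of these cell types in the members' ratios was not tested. In whole muscle, fewer cells of a type and less RNA per cell cannot be told apart.

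Genes of a pair are cut from a common stretch of the genome, and their count ratio within a library needs no scaling between libraries. Mir195a over Mir497 was 3.21 in library 1 (95% counting interval 3.03 to 3.41) and 2.11 in library 2 (1.96 to 2.28). The intervals were apart, so the make-up of this pair differed between the libraries beyond counting error. Mir15b over Mir16-2 was 4.95 (4.56 to 5.38) in library 1 and 6.47 (5.77 to 7.28) in library 2, again with intervals apart and in the other direction. Mir15a over Mir16-1 was 2.30 (2.17 to 2.43) in library 1 and 2.54 (2.34 to 2.75) in library 2, with intervals that overlapped. Counts of both Mir16 genes leave out miR-16-5p reads that match both. The ratios with a Mir16 gene are thus of assigned reads only and do not give the relative output of the partners.

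Across loci, the ratio of Mir16-1 over Mir16-2 was 2.47 (2.26 to 2.71) in library 1 and 2.51 (2.21 to 2.85) in library 2, with intervals that overlapped. Mir15a over Mir15b was 1.15 (1.10 to 1.20) in library 1 and 0.983 (0.926 to 1.04) in library 2, with intervals apart. The ratio of the Mir16 genes is of assigned reads only and does not give the relative output of their loci. Both comparisons across loci were chosen after the values were seen.

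**Figure D4:**
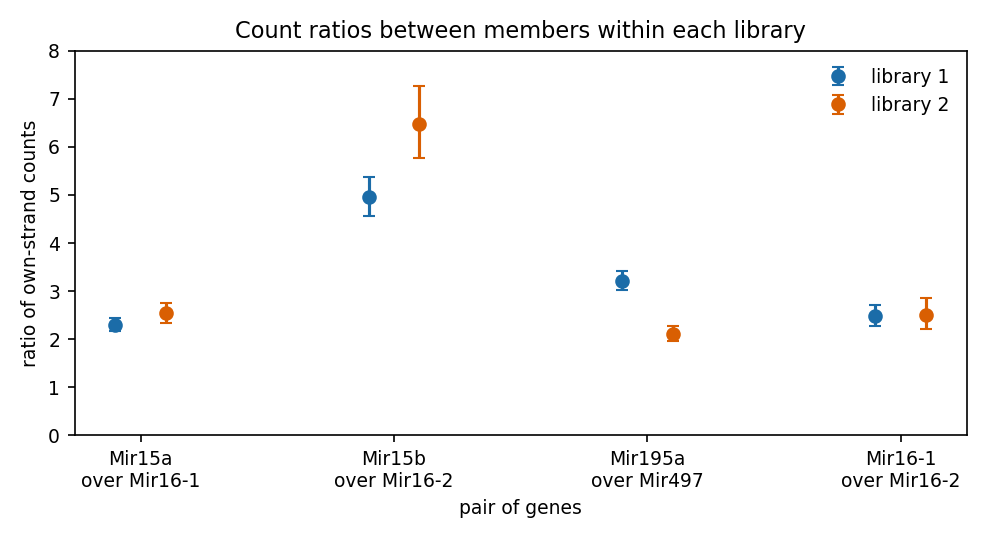
Points give the ratio of own-strand counts between 2 members in library 1 (blue) and library 2 (orange), with exact 95% counting intervals. Mir195a over Mir497 is 3.21 in library 1 and 2.11 in library 2 with intervals apart, whereas Mir16-1 over Mir16-2 is 2.47 in library 1 and 2.51 in library 2. Ratios with a Mir16 gene are of assigned reads only.

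To set these pairs beside other miRNA genes, neighbouring detected genes within 10 kb on 1 strand were taken, which gave 112 pairs. Partners differed by a median log2 ratio of 2.28 (quartiles 1.13 and 4.39), and that ratio changed between the libraries by a median of 0.24 (quartiles 0.10 and 0.41). Mir15a and Mir16-1 differed by a mean log2 ratio of 1.27, Mir195a and Mir497 by 1.38, and Mir15b and Mir16-2 by 2.50. Of the 112 pairs, 76 had a larger gap than Mir15a and Mir16-1, 72 a larger gap than Mir195a and Mir497, and 51 a larger gap than Mir15b and Mir16-2. The change between the libraries was 0.14 for Mir15a with Mir16-1, 0.61 for Mir195a with Mir497 and 0.39 for Mir15b with Mir16-2. A larger change than these was seen in 73 pairs for Mir15a with Mir16-1, in 16 for Mir195a with Mir497 and in 30 for Mir15b with Mir16-2. Mir195a with Mir497 thus lay above the upper quartile of change, and the other family pairs lay below it. The 112 pairs include the family's own, and a gene can stand in more than 1 pair. Changes were not adjusted for counting error, which is larger where a partner has few counts. Gaps and changes of the pairs with a Mir16 gene are of assigned reads only, since reads that match both Mir16 genes were left out. Of counted genes with a mature arm in RefSeq, 11.2% had an arm that lay whole in more than 1 counted hairpin. How many of the 112 pairs hold such a gene was not tested. The ranks thus compare assigned reads and not the output of the partners.

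**Figure D5:**
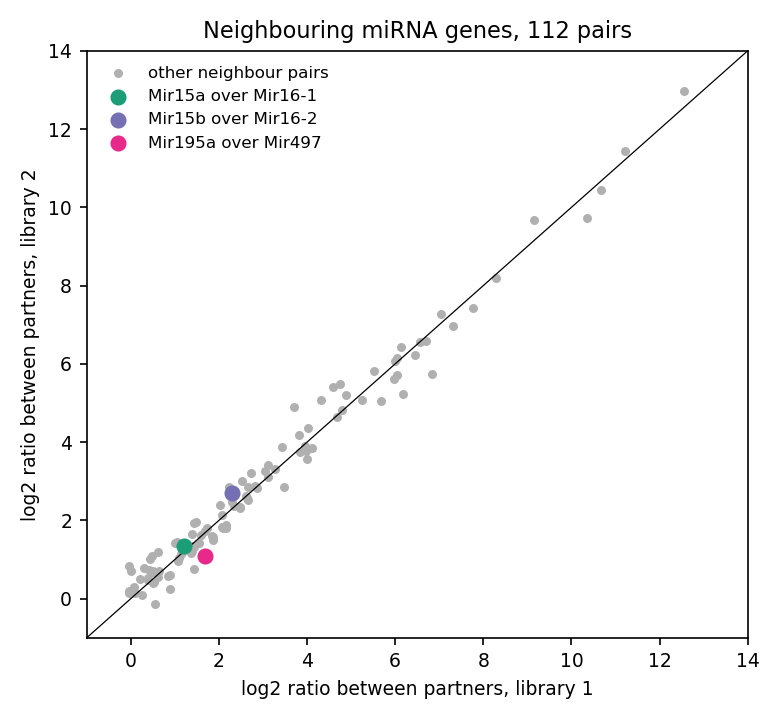
Each point is a pair of neighbouring miRNA genes, with the log2 ratio of the higher over the lower partner in library 1 on the x axis and in library 2 on the y axis, and the line marks equal ratios. Mir195a over Mir497 lies below the line at 1.68 in library 1 and 1.08 in library 2, and the other family pairs lie closer to it.

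Beside the members, 5 counted genes carry the seed. Mir322, an X-linked gene induced in differentiating myoblasts whose mouse product targets Cdc25a, had 115732 counts in library 1 (20780 CPM) and 101193 in library 2 (23334 CPM). Mir195b, Mir6342, Mir6353 and Mir6419 had no count in either library, for which 3 counts, or 0.539 CPM in library 1 and 0.692 CPM in library 2, were taken as the limit of assigned reads. Of counted reads of genes with the seed, the members made up 12.2% (12.0 to 12.4) in library 1 and 8.00% (7.84 to 8.16) in library 2, and Mir322 the other 87.8% in library 1 and 92.0% in library 2. Reads of miR-16-5p that match both Mir16 genes are missing from these shares, so the members' part is a count of assigned reads only. Mir322 was lower in library 1, with a log2 ratio of -0.14 (-0.16 to -0.13), in the direction opposite to all members.

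Mir503, the neighbour of Mir322, departs from the seed at base 8, as shown here with the bases from 2 to 7 that it shares in capitals.
miR-503-5p: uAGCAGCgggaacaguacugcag
It had 8166 counts in library 1 (1466 CPM) and 5536 in library 2 (1277 CPM) and was higher in library 1 at a log2 ratio of 0.22 (0.17 to 0.27).

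The list of other miRNA genes linked to proliferation, with 26 symbols that include Mir322 and Mir503 and no member, had 25 genes in the tables and 19 tested, of which 5 were called higher in library 1, 3 were called lower and 11 were not called. Over all genes tested 26.9% were called higher and 28.7% lower, so these counts say nothing particular about the list. Its median log2 ratio was -0.03, the same as that of all genes tested. Its 3 highest genes were Mir322, Mir17 and Mir503. Mir17, of the Mir17-92 cluster that promotes entry into S phase, had 12369 counts in library 1 and 9593 in library 2 and a log2 ratio of 0.03 (-0.01 to 0.07).

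The genes most like each member were those nearest in log2(CPM + 0.5) over the 2 libraries. Mir15a and Mir15b lay 0.20 apart, and Mir195a was nearest to Mir15a at 0.29. Mir15b was nearest to Mir27a at 0.06, which had 616 CPM in library 1 and 525 CPM in library 2. Mir16-1 was nearest to the myeloid gene Mir223 at 0.13, which had 331 CPM in library 1 and 184 CPM in library 2, and next to Mir25 at 0.31. Mir16-2 was nearest to Mir101a at 0.34, which had 133 CPM in library 1 and 97.8 CPM in library 2. Mir497 was nearest to Mirlet7c-2 at 0.12, which had 248 CPM in library 1 and 244 CPM in library 2. With 2 libraries, likeness of this kind reflects level and ratio of assigned reads alone.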

How the data were processed

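The authors deposited raw counts per gene for each library, counted on mm10 with GENCODE M21, per the text deposited with the files. The labels give RNA below 30 bases. The sources used here name no aligner or counter. There are 3 count columns per deposited table (strand ignored, own strand, opposite strand), of which the own-strand counts were used, and 4 lines that name no gene, which were kept out of totals. Those for multimapping, unmapped and no feature held 36.9%, 8.03% and 1.70% of reads in library 1 and 37.6%, 9.26% and 2.09% in library 2. All 2202 identifiers matched GENCODE M21.

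Genes at 2 CPM or more in both libraries were tested with the exact binomial test (two-sided) of counts given totals scaled by TMM (edgeR 4.0.16, R 4.3.3), at an adjusted p of 0.05. This test replaced a model over replicates because the only group has 2 libraries, which leaves no degrees of freedom between them. Intervals, exact at 95%, hold counting error alone and treat each read as separate. Reads that carry no molecular identifier may be copies of 1 molecule, so the intervals may be too narrow and the p-values too small. A count of 0 was taken to allow up to 3 counts. DESeq2 1.42.0 gave size factors for an alternative scaling only. Other steps used Python 3.11.15, scipy 1.17.1, numpy 2.4.6, pandas 2.3.3 and matplotlib 3.10.9.

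The members and lists were chosen with earlier results of these data known. Genes named were all members, counted genes with the seed, Mir322 and Mir503, the 3 highest of the proliferation list, the 2 genes nearest each member (of which some are given), genes opposite a member, and the fixed cell type markers. Mature sequences of all 6 members came from the RefSeq table, and shared stretches from GENCODE M21 transcripts.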

Additional observations from a re-analysis of the deposited data

Results flagged for a closer look

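Reads outside the counts used for the main values were present at more than the 3 counts taken as the limit for a 0. The multimapping line held 36.9% of all reads in library 1 and 37.6% in library 2, and the share of it that came from miR-16-5p was not analysed here. On the strand opposite to Mir497b, 1494 reads were listed in library 1 and 1058 in library 2, which equal the own-strand counts of Mir497. On its own strand Mir497b had 1 count in library 1 and 0 in library 2.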

How the results depend on the processing

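All 35 alternative ratios of members, under other scaling, other filters on low counts and unstranded counts, kept their direction and their call. The filters left each ratio unchanged by construction, so only the adjusted p could move under them. Within each other setting, the log2 ratios of all members that had one shifted by the same amount. These settings are therefore not separate support for the direction. The ratios ranged from 0.74 to 0.83 (log2) for Mir195a and from 0.14 to 0.23 for Mir497, whose adjusted p by the exact test ranged from 0.000186 to 0.0340. TMM over all counted genes was added after seeing the data. Requiring 1.5-fold as well left 40 called genes, 13 higher and 27 lower in library 1, and 3 of the members, since that rule asks for more. Unstranded counts gave no ratio for Mir497 and a level of 0 CPM. Scaled to all reads, the family held 0.129% in place of 0.246% ± 0.0607 (SD, n = 2) of gene counts, and every member's level was lower because the total is larger. Leaving out a library gave the value of the other with no test: the share ranged from 0.203% to 0.289%, and the pair ratios from 2.30 to 2.54 for Mir15a over Mir16-1, 4.95 to 6.47 for Mir15b over Mir16-2 and 2.11 to 3.21 for Mir195a over Mir497. A neighbour distance of 1 kb left 67 pairs. At a shared stretch of 24 bases 0 members shared sequence with another counted gene, against 2 at 20 bases. No paired analysis was possible because the series has 1 group. Mir16-2, with the lowest count of a member at 337 reads in library 2, had the family's widest interval for the log2 ratio between libraries.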
